A study of Tribolium castaneum with 6 samples.

Results

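The cytochrome P450 genes of the red flour beetle, Tribolium castaneum, were examined in RNA-Seq libraries of larvae with and without knockdown of TcAMPKα, the catalytic α subunit of AMP-activated protein kinase, a cellular energy sensor. A gene was taken as a P450 when its name in the deposited transcript tables began with "cyp" and a digit, in either case. This gave 24 of the 15099 genes in the tables, 14316 of which carry a name, and 35 of the 31944 transcripts. The rule used names and no measured value. P450 genes listed under a locus number in place of a P450 name were not found by it, so these 24 are the named part of the family.

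Larvae of the Georgia-1 strain were injected at 20 days of age with 200 ng of double-stranded RNA and sampled on day 6 after the injection. The dsEGFP group received double-stranded RNA against EGFP, a jellyfish fluorescent protein gene that the beetle lacks, and served as the control. The dsTcAMPKα group received double-stranded RNA against TcAMPKα. Each group had 3 libraries, each made from the pooled RNA of 10 whole larvae and described as an independent biological replicate. Whole larvae mix all tissues, so fewer cells of a tissue and less RNA per cell cannot be told apart in any value below. Uninjected larvae were not analysed here, so the effect of the injection itself is common to both groups.

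P450 enzymes are haem proteins that insert an oxygen atom into a wide range of substrates. Insect P450s are sorted into clans. The CYP4 family lies in a clan named after it, and its mammalian members include fatty acid ω-hydroxylases. CYP6, CYP9 and CYP346 belong to clan 3, whose members are best known for the breakdown of plant compounds and insecticides. The mitochondrial clan holds CYP314 and CYP301, and CYP18 lies in clan 2. CYP314A1, called shade in Drosophila, turns ecdysone into the moulting hormone 20-hydroxyecdysone, and CYP18A1 inactivates that hormone in Drosophila. CYP4G enzymes make cuticular hydrocarbons in Drosophila by oxidative decarbonylation of aldehydes. In T. castaneum, CYP6BQ9 is known from deltamethrin resistance and the CYP346B subfamily from phosphine resistance.

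The deposited values were FPKM, read fragments scaled to transcript length and to the mapped fragments of the library, and were added up over the transcripts of each gene. Reads per library, estimated from the deposited coverage, ranged from 33518139 to 37584930. The targeted gene, listed as Snf1a, was at 77.3, 74.9 and 56.9 FPKM in dsEGFP replicates 1, 2 and 3 and at 10.7, 7.32 and 16.3 FPKM in those of the dsTcAMPKα group, a log2-fold change of -2.56 (limma, adjusted p = 0.0164). Of the 10981 genes with a mean of at least 1 FPKM, 449 were higher and 298 lower in the dsTcAMPKα group past both thresholds used throughout, which were an adjusted p below 0.05 and a log2-fold change beyond 1 in either direction. FPKM summed over all genes was lower in every dsTcAMPKα library than in every dsEGFP library, and the tested genes had a median log2-fold change of 0.20. When the libraries were rescaled by median-ratio size factors that median was -0.01, and the calls became 163 higher and 448 lower. Rescaled to TPM, the median was 0.44, with 1400 genes higher and 219 lower. Log2-fold changes of single P450 genes below are on the FPKM scale unless another is named, and are to be read against the median of 0.20.

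The 24 named P450 genes fell into 7 families. CYP4 had 11 members, CYP9 had 5, CYP6 had 4, and CYP18, CYP301, CYP314 and CYP346 had 1 each. The main transcripts were 1512 to 2094 nt long, with a median of 1607.5 nt against 1556 nt for all tested genes. Exon numbers differed between the families. CYP6, CYP9 and CYP346 members had 3 or 4 exons in their main transcript, CYP4 members 4 to 8, and CYP301B1 had 10. In 17 members a single transcript was listed. The RefSeq gene table matched 23 members by symbol, and gave CYP9Z5 as another symbol of Cyp9f2 and CYP9D1 as one of Cyp9.

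Levels of the named P450 genes spanned more than 3 orders of magnitude in control larvae. Cyp9f2, a clan 3 gene, stood at the top with a mean of 1415 ± 189 FPKM (SD, n = 3) and ranked 57th among all genes over the 6 libraries. The second was Cyp4g14, a CYP4G gene, at 553 ± 20.8 FPKM, and the third was CYP4Q7 at 396 ± 67.2 FPKM. These 3 genes made up between 67.2% and 77.5% of the P450 FPKM of a library, and the 24 genes together made up between 0.382% and 0.606% of all FPKM. Above the median level of tested genes, 15.6 FPKM, lay 17 members. At the bottom, Cyp9af1, CYP301B1 and CYP6BQ9 had dsEGFP means of 0.949 ± 0.321, 0.795 ± 0.184 and 0.590 ± 0.717 FPKM.

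**Figure D1:**
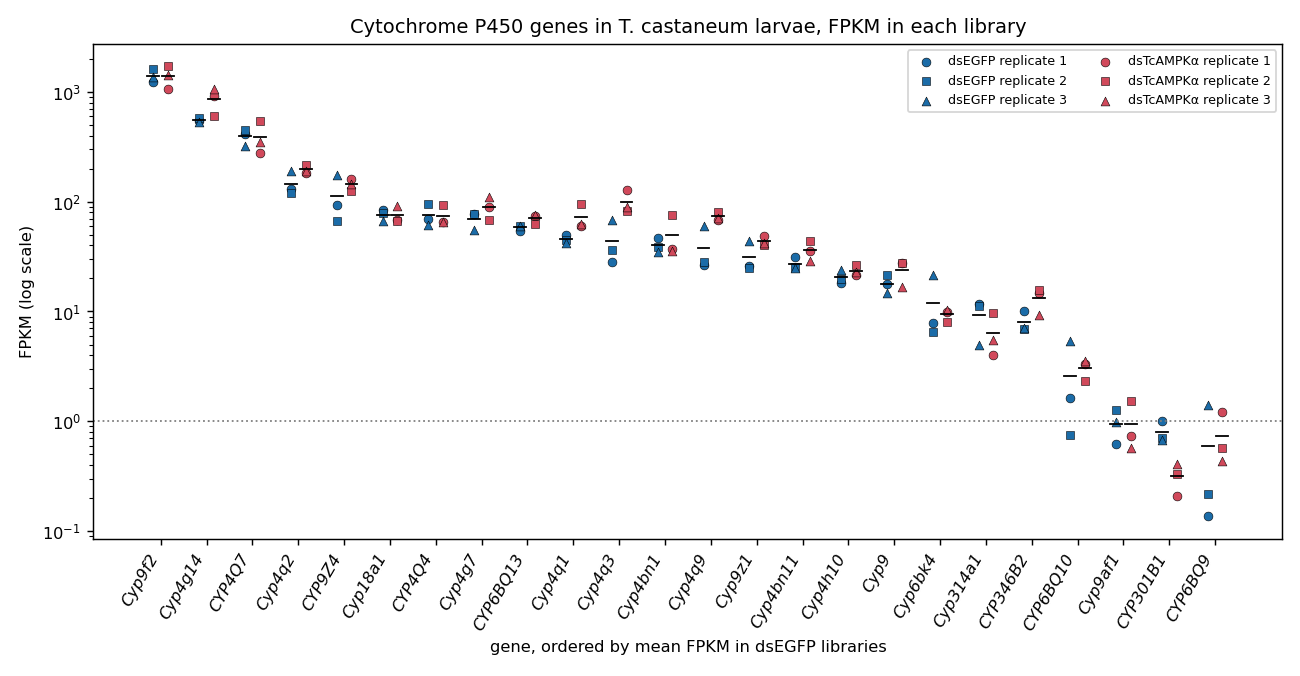
FPKM of the 24 named P450 genes on a log axis, ordered along the x axis by their mean in the dsEGFP libraries. Points are single libraries (blue dsEGFP, red dsTcAMPKα, symbol by replicate), black bars are group means, and the dotted line is the minimum of 1 FPKM for testing. Cyp9f2 lay near 1400 FPKM in both groups, and 3 genes lay below the dotted line on average.

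The order of the levels was set by large steps at the top and blurred in the middle. In the dsEGFP libraries Cyp9f2 did not overlap with Cyp4g14, Cyp4g14 with CYP4Q7, or CYP4Q7 with Cyp4q2. Of the 23 pairs of neighbours in the order, 6 did not overlap in the dsEGFP libraries. The other 3 were CYP6BQ13 over Cyp4q1, Cyp4bn11 over Cyp4h10, and CYP346B2 over CYP6BQ10. From Cyp4q2 down to CYP6BQ13, that is from 147 to 58.3 FPKM, and from Cyp4q1 down to Cyp4bn11, from 45.7 to 27.3 FPKM, each gene overlapped with the next. The first 5 places were held by the same genes in the same order in the dsTcAMPKα group. The largest move was that of Cyp4q3, from place 11 to place 6.

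Replicates spread by very different amounts from gene to gene. Cyp4g14 was the tightest member of the dsEGFP group, with a coefficient of variation of 3.77%, followed by CYP6BQ13 with 6.02%. Cyp6bk4 and CYP6BQ10 were the widest of the tested members, with 68.7% and 94.8%. In the dsTcAMPKα group the tested members lay between 8.77% for Cyp4q2 and 46.2% for Cyp4bn1.

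Between the groups, none of the 21 tested members passed both thresholds in either direction by limma on FPKM. This holds for the named genes only. The paper, with DESeq2, lists cytochrome P450s among both its up-regulated and its down-regulated genes, and those genes were not compared with the members here. By limma 0 members had an adjusted p under 0.05, against 16.5% of all tested genes, and 6.80% of all tested genes passed both thresholds. The smallest adjusted p was that of Cyp4q3 (0.0565). At an unadjusted p under 0.05 there were 5 members (Cyp4q3, Cyp4q9, Cyp4q1, CYP346B2 and Cyp4g14), against 36.5% of all tested genes. A voom fit on reads estimated from coverage also called 0 members and gave the same 5 genes an unadjusted p under 0.05. Log2-fold changes were above 0 in 15 members and below 0 in 6, and 63.9% of all tested genes were above 0. The members' median was 0.37, against 0.20 for all tested genes, and 14 members lay above the latter. Rescaled by size factors, 13 members were above 0, with a median of 0.15, as were 49.5% of all tested genes, with a median of -0.01. Rescaled to TPM, 20 members were above 0, with a median of 0.63, as were 76.1% of all tested genes, with a median of 0.44.

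Every dsTcAMPKα library lay above every dsEGFP library for 5 members, Cyp4q3, Cyp4q9, Cyp4q1, Cyp4g14 and CYP6BQ13, and 31.2% of all tested genes had that pattern. The opposite pattern was found for none of the tested members and for 13.6% of all tested genes. After rescaling by size factors Cyp4q1, Cyp4q3 and Cyp4q9 still had no overlap, as had 21.1% of all tested genes in that direction, and Cyp4g14 and CYP6BQ13 did overlap. In TPM 11 members lay apart and higher, against 44.3% of all tested genes. Below the minimum for testing, CYP301B1 was lower in every dsTcAMPKα library, as described with the mitochondrial members.

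**Figure D2:**
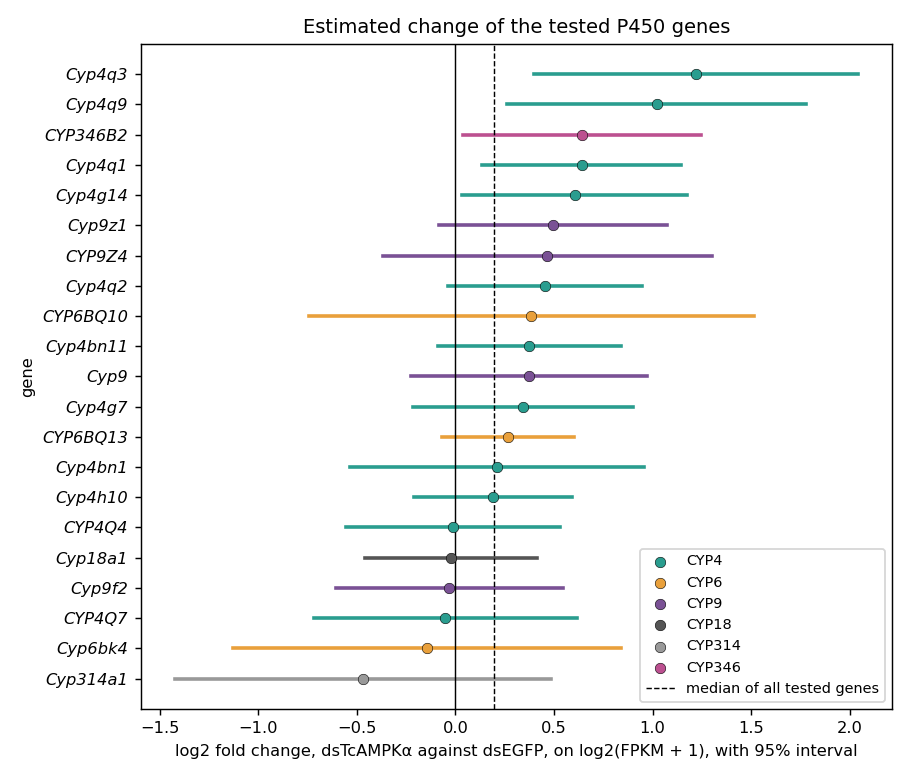
Estimated log2-fold change between the dsTcAMPKα and dsEGFP groups on log2(FPKM + 1) for the 21 tested P450 genes (x axis), with 95% intervals as bars and families in colour. The solid line marks 0 and the dashed line the median of all tested genes, 0.20. The estimates ran from -0.47 for Cyp314a1 to 1.22 for Cyp4q3, and the intervals of 5 genes lay wholly above 0.

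Of the CYP4 genes, 9 of 11 had a log2-fold change above 0, 4 of 11 had no overlap between the groups, and 0 of 11 passed both thresholds. Of all tested genes, 63.9%, 31.2% (higher) and 6.80% did so. The family summed to 1445, 1512 and 1417 FPKM in the dsEGFP libraries and to 1894, 1934 and 2095 FPKM in the dsTcAMPKα libraries. The ratio of the means was 1.35 and the groups did not overlap. Rescaled by size factors the ratio was 1.15 and the groups overlapped. In TPM the ratio was 1.62, without overlap.

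Within the CYP4G subfamily, Cyp4g14 was at 548, 576 and 535 FPKM in the dsEGFP libraries and at 924, 606 and 1063 FPKM in the dsTcAMPKα libraries. The dsEGFP libraries lay close together, and dsTcAMPKα replicate 2 lay just above them while replicates 1 and 3 lay far above. The log2-fold change was 0.60 ± 0.24 (SE) with an adjusted p of 0.122. Cyp4g7, the other CYP4G gene, was at 77.2, 77.7 and 55.1 FPKM in the dsEGFP group and at 90.2, 67.9 and 110.5 FPKM in the dsTcAMPKα group. Its groups overlapped through dsTcAMPKα replicate 2, and its log2-fold change was 0.34 ± 0.23 (adjusted p = 0.326). Both CYP4G genes were thus lowest in the same dsTcAMPKα library. They lie on the same sequence, NC_007419.2 of the Tcas5.2 assembly, on opposite strands (Cyp4g14 at 4413405-4415340, plus; Cyp4g7 at 10266881-10268781, minus). The ratio of Cyp4g14 to Cyp4g7 was 8.08 ± 1.43 in the dsEGFP group and 9.60 ± 0.66 in the dsTcAMPKα group. Under quantile normalisation Cyp4g14 passed both thresholds, with a log2-fold change of 1.02 (adjusted p = 0.0461), where 2.13% of all tested genes were called higher. After rescaling by size factors the summed CYP4G level was 1.30 times higher in the dsTcAMPKα group, against 1.53 times in FPKM, and the groups overlapped. In TPM the summed level was 1.83 times higher, without overlap.

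The CYP4Q subfamily formed the largest group of neighbours. Its 6 genes, Cyp4q9, Cyp4q3, Cyp4q2, Cyp4q1, CYP4Q7 and CYP4Q4 in that order, lie on the plus strand of NC_007424.3 between 9516698 and 9533083, a stretch of 16.4 kb with no other gene between them. The distances between neighbours were 125 to 3061 nt. Genes in such an array commonly arise by duplication and can be alike in sequence. How reads that map to several copies were shared out is not given in the sources used here, and the likeness of the copies was not measured, so the split of signal between neighbours carries that uncertainty.

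The first genes of the CYP4Q array had the highest estimates of the family. Cyp4q3 was at 28.5, 36.1 and 68.0 FPKM in the dsEGFP libraries and at 127, 82.2 and 89.0 FPKM in the dsTcAMPKα libraries. All dsTcAMPKα libraries lay above all dsEGFP libraries, with dsEGFP replicate 3 standing between its own group and the other. The log2-fold change was 1.22 ± 0.34, with a 95% interval of 0.40 to 2.04 and an adjusted p of 0.0565, and it lay 1.03 above the median of all genes. Cyp4q9 was at 26.5, 28.3 and 60.01 FPKM in the dsEGFP group and at 67.7, 81.2 and 71.7 FPKM in the dsTcAMPKα group. The gap between the groups was again set by dsEGFP replicate 3, and the log2-fold change was 1.02 ± 0.32 (adjusted p = 0.0702).

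On the FPKM scale, both genes were called only with that library left out. Without dsEGFP replicate 3, Cyp4q3 had a log2-fold change of 1.57 (adjusted p = 0.0100) and Cyp4q9 one of 1.39 (adjusted p = 0.00604). Both then passed both thresholds, as did 6.26% of all tested genes in that direction, although the dsEGFP group was left with 2 libraries. Rescaled to TPM, with all libraries, the same 2 genes were called higher, against 12.7% of all tested genes. In FPKM, leaving out any library other than dsEGFP replicate 3 called 0 members, but most of those fits called few genes at all. Of all tested genes, 536 were called higher without dsEGFP replicate 1 and 17 without dsEGFP replicate 2. For dsTcAMPKα replicates 1, 2 and 3 the numbers were 0, 0 and 4, so those fits say little about the members.

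The next genes along the array differed less between the groups. Cyp4q2 was at 132, 119 and 189 FPKM in the dsEGFP group and at 185, 218 and 192 FPKM in the dsTcAMPKα group. Only dsEGFP replicate 3 overlapped with the dsTcAMPKα libraries, and the log2-fold change was 0.45 ± 0.21 (adjusted p = 0.162). Cyp4q1 was at 50.3, 44.8 and 42.0 FPKM in the dsEGFP group and at 60.7, 96.1 and 62.8 FPKM in the dsTcAMPKα group. Here the groups did not overlap, dsEGFP replicate 3 was the lowest library, and the log2-fold change was 0.64 ± 0.21 (adjusted p = 0.0801). A 4-exon transcript made up 69.7% to 83.6% of the Cyp4q1 signal, and the remainder came from an assembled 3-exon form.

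At the far end of the array, levels of the last genes were nearly equal in the 2 groups. CYP4Q7 was at 417, 450 and 320 FPKM in the dsEGFP group and at 281, 543 and 353 FPKM in the dsTcAMPKα group, with full overlap. Its log2-fold change was -0.05 ± 0.28, with a 95% interval of -0.72 to 0.62 (adjusted p = 0.911). CYP4Q4 was at 69.7, 96.0 and 62.0 FPKM in the dsEGFP group and at 65.8, 93.0 and 66.0 FPKM in the dsTcAMPKα group. Its log2-fold change was -0.01 ± 0.23 (adjusted p = 0.972). In both genes replicate 2 was the highest library of each group. Because of these unequal changes the ratio of Cyp4q3 to CYP4Q4 was 0.408, 0.377 and 1.10 in the dsEGFP libraries and 1.93, 0.884 and 1.35 in the dsTcAMPKα libraries, with overlap through dsEGFP replicate 3. The ratio of CYP4Q7 to CYP4Q4 was 5.27 ± 0.651 and 5.16 ± 0.804 in the dsEGFP and dsTcAMPKα groups. Such ratios do not depend on how libraries are scaled.

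**Figure D3:**
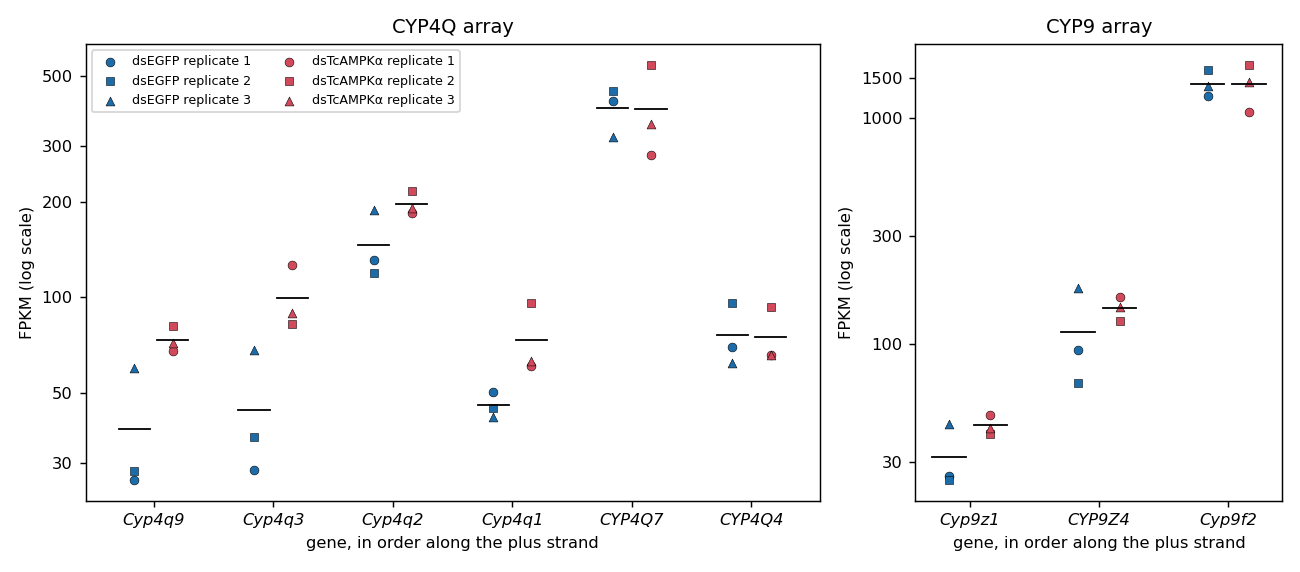
FPKM on a log axis for the 6 genes of the CYP4Q array (left) and the 3 named genes of the CYP9 array (right), in their order along the plus strand. Points are libraries (blue dsEGFP, red dsTcAMPKα, symbol by replicate) and bars are group means. In Cyp4q9, Cyp4q3, Cyp9z1 and CYP9Z4 the blue triangle, dsEGFP replicate 3, lay above the other dsEGFP libraries, and in CYP4Q7 and CYP4Q4 it lay below them.

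The remaining CYP4 genes, in the CYP4BN and CYP4H subfamilies, lie apart from each other. Cyp4bn1 was at 47.1, 38.8 and 35.1 FPKM in the dsEGFP group and at 37.0, 75.9 and 35.7 FPKM in the dsTcAMPKα group, so that dsTcAMPKα replicate 2 alone stood out. Its log2-fold change was 0.21 ± 0.31 (adjusted p = 0.658) with all libraries and -0.14 without dsTcAMPKα replicate 2. Cyp4bn11 ranged from 25.1 to 31.2 FPKM in the dsEGFP group and from 28.9 to 43.9 FPKM in the dsTcAMPKα group (log2-fold change 0.37 ± 0.19, adjusted p = 0.209). Cyp4h10 ranged from 18.02 to 24.1 and from 21.5 to 26.6 FPKM (0.19 ± 0.17, adjusted p = 0.446). Both overlapped between the groups.

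The CYP9 genes, of clan 3, summed to nearly the same level in both groups in FPKM, with a ratio of the means of 1.02. That ratio was 0.865 after rescaling by size factors and 1.23 in TPM, and the groups overlapped on each scale. Cyp9f2 dominated this sum. It was at 1245, 1618 and 1382 FPKM in the dsEGFP libraries and at 1057, 1713 and 1442 FPKM in the dsTcAMPKα libraries. The groups overlapped fully, with the lowest and the highest library both in the dsTcAMPKα group. The log2-fold change was -0.03 ± 0.24 (adjusted p = 0.938), and its 95% interval of -0.61 to 0.54 does not reach 1, the threshold, on either side.

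A second array of named genes lies on the plus strand of NC_007423.3 between 9323747 and 9335352, a stretch of 11.6 kb. They are Cyp9z1, CYP9Z4 and Cyp9f2, whose other symbol CYP9Z5 places it in the same subfamily, and 2 genes listed only by locus number lie among them. Cyp9z1 was at 26.0, 25.0 and 44.2 FPKM in the dsEGFP group and at 48.5, 40.0 and 42.5 FPKM in the dsTcAMPKα group. CYP9Z4 was at 93.9, 67.2 and 177 FPKM in the dsEGFP group and at 162, 126 and 146 FPKM in the dsTcAMPKα group. In both genes dsEGFP replicate 3 lay within or above the dsTcAMPKα libraries while dsEGFP replicates 1 and 2 lay below them.

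The log2-fold changes of these neighbours were 0.49 ± 0.24 for Cyp9z1 (adjusted p = 0.189) and 0.47 ± 0.35 for CYP9Z4 (adjusted p = 0.368). Cyp9z1 and CYP9Z4 kept a nearly fixed ratio, 0.299 ± 0.0641 in the dsEGFP group and 0.303 ± 0.0137 in the dsTcAMPKα group. The ratio of CYP9Z4 to Cyp9f2 was 0.0754, 0.0416 and 0.128 in the dsEGFP libraries and 0.153, 0.0735 and 0.101 in the dsTcAMPKα libraries, with overlap. The main transcript of CYP9Z4 made up 92.2% to 99.2% of its signal. The rest was on short assembled fragments, among them one on the opposite strand, and nothing in the sources used here says that the libraries kept strand.

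The other 2 CYP9 members lie elsewhere on the same sequence. Cyp9 was at 17.6, 21.7 and 14.7 FPKM in the dsEGFP group and at 27.5, 27.6 and 16.6 FPKM in the dsTcAMPKα group (log2-fold change 0.37 ± 0.25, adjusted p = 0.319). Its groups overlapped through dsTcAMPKα replicate 3. An assembled 4-exon transcript took 14.3% of the Cyp9 signal in dsEGFP replicate 2 and 75.6% in dsEGFP replicate 3, so the assignment between its transcripts was not stable among control libraries. Cyp9af1 was near the limit of detection, at 0.614, 1.25 and 0.978 FPKM in the dsEGFP group and at 0.732, 1.53 and 0.573 FPKM in the dsTcAMPKα group. An exact permutation test, two-sided, gave p = 1 for it, where the smallest p that 3 against 3 libraries allow is 0.1.

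The CYP6 genes, also of clan 3, were at lower levels. Their sum overlapped between the groups, with a ratio of the means of 1.14 in FPKM, 0.974 under size factors and 1.37 in TPM. CYP6BQ13 was by far the highest of them, at 54.3, 60.2 and 60.5 FPKM in the dsEGFP group and at 73.6, 62.7 and 75.3 FPKM in the dsTcAMPKα group. The groups did not overlap, by a margin of a few FPKM, and the log2-fold change was 0.27 ± 0.14 (adjusted p = 0.212). Cyp6bk4 was at 7.93, 6.49 and 21.3 FPKM in the dsEGFP group and at 9.87, 8.06 and 10.3 FPKM in the dsTcAMPKα group. Apart from dsEGFP replicate 3 its libraries lay close together, and its log2-fold change of -0.14 ± 0.41 (adjusted p = 0.827) became 0.34 without that library.

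CYP6BQ10 and CYP6BQ9 are adjacent on the minus strand of NC_007419.2, within 6211932-6216167, far from CYP6BQ13 on NC_007417.3. Between their main transcripts lie 760 nt. A longer transcript of CYP6BQ10 reaches to 6214076 and CYP6BQ9 begins at 6214502, so the genes lie closer than that. CYP6BQ10 was at 1.64, 0.748 and 5.36 FPKM in the dsEGFP group and at 3.36, 2.31 and 3.52 FPKM in the dsTcAMPKα group (log2-fold change 0.38 ± 0.47, adjusted p = 0.589). CYP6BQ9, the gene of deltamethrin resistance, was at 0.137, 0.217 and 1.42 FPKM in the dsEGFP group and at 1.20, 0.573 and 0.433 FPKM in the dsTcAMPKα group. The values of CYP6BQ9 rest on an estimated 8 to 84.9 reads a library, and the exact permutation test gave p = 0.6. In both neighbours dsEGFP replicate 3 was the highest library of all.

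CYP346B2, of the subfamily known from phosphine resistance, was at 10.1, 6.99 and 7.08 FPKM in the dsEGFP group and at 14.9, 15.8 and 9.24 FPKM in the dsTcAMPKα group. The groups overlapped only between dsEGFP replicate 1 and dsTcAMPKα replicate 3. Its log2-fold change was 0.64 ± 0.25 (adjusted p = 0.121), close to that of Cyp4q1.

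Of the genes of moulting hormone metabolism named in the tables, Cyp314a1 was at 11.6, 11.2 and 4.92 FPKM in the dsEGFP group and at 3.98, 9.63 and 5.51 FPKM in the dsTcAMPKα group. The groups overlapped, with dsEGFP replicate 3 among the low libraries and dsTcAMPKα replicate 2 near the high ones. It had the lowest estimate of the tested members, a log2-fold change of -0.47 ± 0.40 with an adjusted p of 0.428. A fragment of unknown strand outside the main locus made up 4.81%, 3.50% and 0% of its signal in dsEGFP replicates 1, 2 and 3. In those of the dsTcAMPKα group the fragment made up 11.9%, 14.8% and 22.6%. With the main transcript alone the log2-fold change of Cyp314a1 was -0.59 (limma, adjusted p = 0.289). Cyp18a1, for the enzyme that inactivates the hormone, was at 84.2, 78.2 and 66.3 FPKM in the dsEGFP group and at 68.4, 66.5 and 91.8 FPKM in the dsTcAMPKα group. Its log2-fold change was -0.02 ± 0.18 (adjusted p = 0.944). The ratio of Cyp18a1 to Cyp314a1 ranged from 6.96 to 13.5 in the dsEGFP group and from 6.91 to 17.2 in the dsTcAMPKα group, with overlap. The earlier enzymes of ecdysone synthesis were not analysed here.

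CYP301B1, a second member of the mitochondrial clan, was at 1.01, 0.699 and 0.679 FPKM in the dsEGFP group and at 0.209, 0.327 and 0.409 FPKM in the dsTcAMPKα group. It was the only one of the 24 members that was lower in every dsTcAMPKα library. Of all tested genes, which do not include CYP301B1, 13.6% had that pattern. The ratio of the means of CYP301B1 was 0.396, on an estimated 12.9 to 60.5 reads a library. Its exact permutation test gave p = 0.1, the smallest that 3 against 3 libraries allow. Any gene without overlap between the groups gets this p, so it adds nothing to that separation. In a fit without the minimum level its log2-fold change was -0.45 ± 0.11 (limma, adjusted p = 0.0522), a scale on which the added constant of 1 FPKM understates the change of so low a gene.

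In some P450 genes the third control library stood away from the other controls. The ratio of dsEGFP replicate 3 to the mean of dsEGFP replicates 1 and 2 was above 1 in 9 tested members and below 1 in 12. This split was not computed for all tested genes. Among the 21 tested members, that library lay nearer to the dsTcAMPKα mean than to the mean of dsEGFP replicates 1 and 2 in 13, against 45.0% of all tested genes. It was more than 1.5 times higher than both other dsEGFP libraries in 6 members, Cyp4q3, Cyp4q9, Cyp9z1, CYP9Z4, Cyp6bk4 and CYP6BQ10, against 19.1% of all tested genes. In Cyp314a1 alone it was lower than both by more than that factor, and the share of all tested genes in that direction was not computed. The ratio to the mean of dsEGFP replicates 1 and 2 was 2.11 for Cyp4q3, 2.19 for Cyp4q9, 2.20 for CYP9Z4, 2.96 for Cyp6bk4 and 4.49 for CYP6BQ10. Of these 6 genes, 5 lie in the arrays described above, which hold 11 of the 24 named members, tested or not. Cyp6bk4 is in no array and is the only named member on its sequence, NW_015450712.1. A link between the arrays and the level in dsEGFP replicate 3 was not tested.

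Without dsEGFP replicate 3, 6 members had an adjusted p under 0.05, all of them higher in the dsTcAMPKα group, against 26.2% of all tested genes in that direction. Beside Cyp4q3 and Cyp4q9 these were Cyp4q2, Cyp9z1, CYP9Z4 and CYP6BQ10, whose log2-fold changes stayed below the threshold of 1. Of the 5 members that separated the groups with all libraries, Cyp4q3 and Cyp4q9 were among these, and Cyp4g14, Cyp4q1 and CYP6BQ13 were not.

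**Figure D4:**
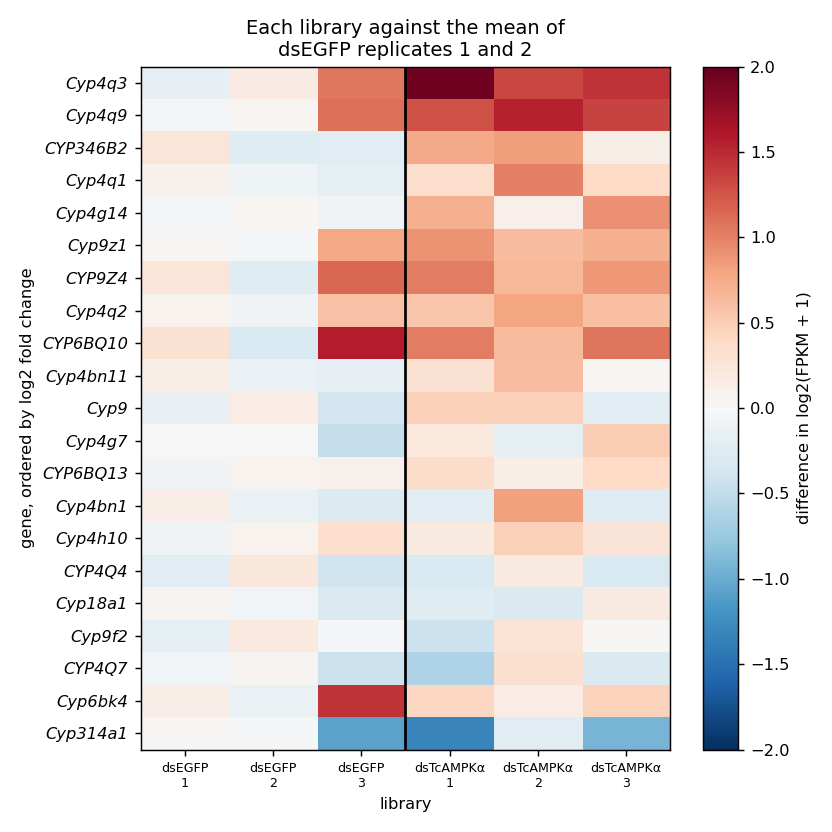
Difference in log2(FPKM + 1) of each library (columns) from the mean of dsEGFP replicates 1 and 2, for the 21 tested P450 genes (rows, ordered by log2-fold change), with red higher and blue lower. The column of dsEGFP replicate 3 resembles the dsTcAMPKα columns in the rows of Cyp4q3, Cyp4q9, Cyp9z1, CYP9Z4 and CYP6BQ10, and not in those of Cyp4g14 and Cyp4q1.

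Genes of the fat body and the cuticle differed between the libraries as well. The 4 hexamerin genes HEX2 to HEX5, for storage proteins that the fat body secretes, summed to between 2277 and 5002 FPKM in the dsEGFP group and to between 1095 and 4698 FPKM in the dsTcAMPKα group. HEX2 was lowest in dsTcAMPKα replicate 1 (958 FPKM) and dsEGFP replicate 3 (1065 FPKM) and highest in dsEGFP replicate 2 (4372 FPKM) and dsTcAMPKα replicate 2 (4113 FPKM). CYP4Q7 had its lowest and highest pairs of libraries in the same places. HEX3, HEX4 and HEX5 did not share both pairs. HEX4 was highest in dsEGFP replicate 3 (969 FPKM), and HEX5 was lowest there (30.8 FPKM). HEX3 had the same highest pair as HEX2, but was lowest in dsTcAMPKα replicate 1 (61.5 FPKM) and dsEGFP replicate 1 (117 FPKM). The 19 genes of cuticle formation summed to 558, 544 and 858 FPKM in the dsEGFP group and to 367, 494 and 619 FPKM in the dsTcAMPKα group, with dsEGFP replicate 3 the highest. Of the 16 that were tested 0 passed both thresholds. The part of these differences in the P450 values was not tested.

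Partners and regulators of P450 genes were looked for by name. No gene was named as a P450 reductase, ferredoxin or other redox partner, as a UDP-glycosyltransferase or as a partner of ecdysone synthesis, so those genes were not analysed here. The pattern for glutathione S-transferases met only Gstcd (log2-fold change 0.17). That for ABC transporters met only Mrpl1 and mRpS31, which are mitochondrial ribosomal protein genes and no transporters. Of the esterases Est-6, Est1, Est2 and Est3, 3 were tested and 0 passed both thresholds, with log2-fold changes of -0.77 to 0.44.

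Of the 4 regulators, cnc and Kr-h1 had an adjusted p under 0.05 in FPKM with all libraries, against 16.5% of all tested genes. Both thresholds were passed there by 0 of the 4. The product of cnc is the insect counterpart of the vertebrate Nrf2 factor and drives detoxification genes, P450 genes among them, in Drosophila and T. castaneum. cnc was at 104, 102 and 59.99 FPKM in the dsEGFP group and at 174, 151 and 160 FPKM in the dsTcAMPKα group. The groups did not overlap, and the log2-fold change was 0.90 ± 0.24 (limma, adjusted p = 0.0483). This call was lost under size factors (log2-fold change 0.67, adjusted p = 0.145) and after a correction for transcript length (0.60, adjusted p = 0.317). Of all tested genes, 12.7% had an adjusted p under 0.05 under size factors and 1.24% after the length correction, so the latter loss says little. For cnc an adjusted p under 0.05 was found in 5 of the 16 alternatives run, and both thresholds were passed in 2. Among the 16, the fits without dsTcAMPKα replicate 1 or 2 gave 0 of all tested genes an adjusted p under 0.05.

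Kr-h1 encodes a transcription factor that acts downstream of juvenile hormone. It was at 32.5, 29.1 and 41.6 FPKM in the dsEGFP group and at 71.5, 56.3 and 67.8 FPKM in the dsTcAMPKα group, without overlap. The log2-fold change was 0.91 ± 0.18 (limma, adjusted p = 0.0293). The adjusted p was 0.0428 under size factors and 0.153 after the length correction, where 1.24% of all tested genes had one under 0.05. It stayed under 0.05 in 10 of the 16 alternatives, and both thresholds were passed in 3. Ecr and Usp, for the subunits of the ecdysone receptor, had log2-fold changes of 0.18 ± 0.24 and 0.52 ± 0.27, and their adjusted p stayed above 0.05 under all 16.

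As a group, the 24 genes summed to 2999, 3411 and 3203 FPKM in the dsEGFP group and to 3365, 4008 and 3939 FPKM in the dsTcAMPKα group, and dsTcAMPKα replicate 1 overlapped with the dsEGFP libraries. The ratio of the means was 1.18 in FPKM, 0.996 after rescaling by size factors and 1.41 in TPM, so the direction of the sum was not fixed. Without Cyp9f2 the sums were 1754, 1792 and 1821 FPKM against 2308, 2295 and 2497 FPKM, a ratio of 1.32 without overlap. Under size factors that ratio was 1.12, and the groups overlapped. In TPM it was 1.59, without overlap.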

How the data were processed

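RNA-Seq was measured in 6 libraries, 3 of the dsEGFP and 3 of the dsTcAMPKα group. The authors aligned clean reads to the Tcas5.2 assembly with HISAT2, and the submitters' notes also name StringTie, Bowtie2 and TopHat2. The authors deposited FPKM per transcript, normalised to transcript length and library total. They also deposited the per-base coverage of each transcript, a signal without normalisation between libraries. For their own test the authors used DESeq2, which needs counts, and these tables hold none.

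FPKM were added up by gene name, or by assembled locus where no name is given. Genes with a mean of at least 1 FPKM entered a limma fit (version 3.58.1, R 4.3.3, eBayes with trend) on log2(FPKM + 1), with Benjamini-Hochberg adjustment over all 10981 genes. Genes passed at an adjusted p below 0.05 and a log2-fold change beyond 1 in either direction. The fit was tested on simulated data. Exact permutation tests used scipy 1.17.1. Reads were estimated as coverage times length over 150 nt. Replicate spread rests on 3 pools a group.

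Alternatives were pseudocounts of 0.1 and 5, no minimum, a minimum of 5 FPKM, size factors, quantile normalisation, TPM, a correction for transcript length, voom, the main transcript alone and leaving out each library. Neighbouring members were at most 20 kb apart. The genes to be named were the 5 largest and 5 smallest log2-fold changes, the 10 highest levels, members of known role and members of the 2 largest arrays. The other members are given for completeness, and CYP301B1 was singled out after its values were seen. Members and lists were chosen with earlier results of these data known. No sequences were used here.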

Additional observations from a re-analysis of the deposited data

How the results depend on the processing

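None of the 21 tested members passed both thresholds with all libraries in FPKM. The count was also 0 under pseudocounts of 0.1 or 5 and with a minimum of 5 FPKM or none. It was 0 under size factors, the length correction, the main transcript alone and voom. Of all 10981 tested genes, the length correction called 46 higher and 75 lower, the fewest of these settings, so its 0 says little. The most, 590 higher and 265 lower, were called by voom. TPM called 2 members, Cyp4q3 (log2-fold change 1.48, adjusted p = 0.0234) and Cyp4q9 (1.28, adjusted p = 0.0296), and quantile normalisation called 1, Cyp4g14. Leaving out each library in turn called 0 to 2 members. Without dsTcAMPKα replicate 1 or 2 limma called 0 of all tested genes, so those settings say nothing about the members. Few genes were called without dsTcAMPKα replicate 3 (4 higher, 30 lower) or dsEGFP replicate 2 (17 higher, 37 lower), so those settings say little about them. Members with an adjusted p under 0.05 numbered 7 in TPM (30.7% of all tested genes), 1 under quantile normalisation (12.9%) and 0 to 6 with a library left out, the 6 being those without dsEGFP replicate 3 (35.6%). The members' median log2-fold change of 0.37 became 0.63 in TPM, 0.15 under size factors and 0.083 after the length correction, where the median of all genes was 0.44, -0.0078 and -0.0048, and it was 0.29 to 0.35 with a library left out. The log2 ratio of the summed members, 0.23, was 0.50 in TPM, -0.0063 under size factors, 0.40 without Cyp9f2, and 0.19 to 0.31 with a library left out. Log2-fold changes near 0 turned sign: in TPM to 0.24 for Cyp18a1, 0.25 for CYP4Q4, 0.21 for CYP4Q7, 0.10 for Cyp6bk4 and 0.23 for Cyp9f2; under quantile normalisation to 0.21 for CYP4Q7 and 0.52 for Cyp9f2; under size factors to -0.018 for Cyp4bn1 and -0.032 for Cyp4h10; and after the length correction to -0.015 for Cyp4h10. With a library left out the ranges that crossed 0 were -0.17 to 0.062 for Cyp18a1, -0.14 to 0.40 for Cyp4bn1, -0.18 to 0.17 for CYP4Q4, -0.31 to 0.16 for CYP4Q7, -0.45 to 0.34 for Cyp6bk4, -0.026 to 0.91 for CYP6BQ10 and -0.19 to 0.16 for Cyp9f2. Cyp4q3, Cyp4q9, Cyp4q1, CYP346B2 and Cyp4g14 kept a log2-fold change above 0 under all 16 alternatives. The cause of these shifts was not tested. No paired analysis was possible because the labels number the libraries in 1 series over both groups, and the replicate numbers used here, given in that order, only name libraries. The 3 arrays were the same at a distance of 50 kb.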

Other observations

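Some genes listed under a locus number carry a P450 name among their other symbols in the RefSeq gene table and so lie outside the rule on names. LOC658858, given as CYP15A1, an enzyme of juvenile hormone synthesis, was at 1.25, 1.02 and 0.773 FPKM in the dsEGFP group and at 0.979, 3.10 and 1.18 FPKM in the dsTcAMPKα group. The groups overlapped, with dsTcAMPKα replicate 2 alone high, and the log2-fold change was 0.38 ± 0.32 (limma, adjusted p = 0.425). LOC664465 and LOC664469, given as CYP6BQ11 and CYP6BQ8, flank CYP6BQ10 and CYP6BQ9 on NC_007419.2, at 6209557-6211219 and 6217180-6218823, so that the array holds at least 4 genes of this subfamily. LOC664465 was at 28.4, 22.9 and 38.8 FPKM in the dsEGFP group and at 44.5, 33.2 and 34.2 FPKM in the dsTcAMPKα group (log2-fold change 0.32 ± 0.23, adjusted p = 0.340). LOC664469 was at 5.59, 5.24 and 3.96 FPKM and at 3.68, 4.48 and 5.08 FPKM (-0.13 ± 0.20, adjusted p = 0.667). The level of LOC664465 was above that of its 3 neighbours in every library, and both flanking genes overlapped between the groups.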
